A study of Homo sapiens with 4 samples.

Results

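Of the 23228 genes in the count tables, 77 belong to the heat shock protein and J-domain cochaperone families described here. They were chosen by symbol and not by their values: every row that starts with DNAJA, DNAJB, DNAJC, HSPA or HSPB and a digit, together with HSP90AA1, HSP90AB1, HSPH1, HSPD1, HSPE1, HSF1, HSF2 and BAG3, and without the endoplasmic reticulum (ER) stress genes HSPA5, DNAJB9 and DNAJC3. The choice takes in 10 members from a list of mitochondrial proteins and 10 from a list of proteins of the ER or its membrane, which are counted apart by compartment below. The cells were ES2, an established human ovarian cancer line, kept without phenol red in charcoal-treated serum and given either vehicle or 100 μM liquiritigenin (Liq) for 24 h. Liq is a plant flavanone used by the study as an agonist of estrogen receptor beta. There were 2 samples per group, and no label says that they came from separate cultures, so p-values measure the spread between these samples, which may be technical. All 4 samples are 1 cell line, and the receptor gene ESR2 had 4, 7, 5 and 14 counts in vehicle 1, vehicle 2, Liq 1 and Liq 2, which was too few to test. The epithelial markers EPCAM, CDH1 and KRT19 had at most 3 counts in any sample, whereas VIM had 7603, 7352, 6479 and 5870 CPM (read counts scaled to a common library size, with a correction for library composition) and KRT7 had 266, 238, 378 and 337 CPM. The keratin and mesenchymal markers moved in both directions, with KRT7 (log2 fold change 0.51) and CDH2 (0.22) higher in Liq and KRT18 (-0.24) and VIM (-0.28) lower. The ovarian marker genes PAX8, with 49, 46, 12 and 29 counts, and WT1, with 168, 181, 98 and 140 counts, fell by 1.34 and 0.68 on the log2 scale (adjusted p = 0.00214 and 0.00285, edgeR). Their part in the results below was not tested.

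Heat shock proteins hold unfolded protein and help it to refold. Proteins of the HSP70 family (HSPA genes) bind short exposed stretches of a client and let go of it in a cycle driven by ATP. J-domain proteins (DNAJ genes) bring clients to HSP70 and switch on its ATPase, nucleotide exchange factors such as HSPH1 and BAG3 reopen it, and HSP90 takes over many clients for the last steps of folding. Small heat shock proteins (HSPB genes) hold clients without ATP. Under proteotoxic stress the transcription factor HSF1 binds heat shock elements, arrays of GAA and its complement TTC, and raises the inducible genes (HSPA1A, HSPA1B, HSPA6, DNAJB1, HSPH1, BAG3), while HSPA8 and HSP90AB1 are abundant without stress.

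The promoters below are shown because the genes behind them moved in different directions and differ in exact matches to heat shock motifs. They are from RefSeq (GRCh38.p14), 300 bases each on the coding strand, from 250 bases before the annotated start (position 0) to 50 bases from it on, and capitals mark every match to GAANNTTCNNGAA (3 units, either strand) or to GAANNTTC or TTCNNGAA (2 units, each its own reverse complement), which overlap the 3-unit motif wherever it occurs. HSPA8 lies at chr11:123062087-123062386 on the minus strand, HSP90AB1 at chr6:44247693-44247992, HSPA1A at chr6:31815293-31815592 and DNAJB4 at chr1:78004689-78004988, the last 3 on the plus strand.
HSPA8: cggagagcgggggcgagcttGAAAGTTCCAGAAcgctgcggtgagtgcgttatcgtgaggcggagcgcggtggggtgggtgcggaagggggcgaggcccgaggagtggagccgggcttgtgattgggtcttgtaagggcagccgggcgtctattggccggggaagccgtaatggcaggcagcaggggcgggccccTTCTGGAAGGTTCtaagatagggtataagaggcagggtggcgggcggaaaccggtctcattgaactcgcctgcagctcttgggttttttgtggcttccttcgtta
HSP90AB1: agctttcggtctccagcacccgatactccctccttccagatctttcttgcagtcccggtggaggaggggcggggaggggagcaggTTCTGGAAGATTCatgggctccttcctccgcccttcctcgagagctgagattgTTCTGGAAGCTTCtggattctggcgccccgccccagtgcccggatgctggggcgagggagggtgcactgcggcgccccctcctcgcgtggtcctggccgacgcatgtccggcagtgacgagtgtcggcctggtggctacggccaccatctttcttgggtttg
HSPA1A: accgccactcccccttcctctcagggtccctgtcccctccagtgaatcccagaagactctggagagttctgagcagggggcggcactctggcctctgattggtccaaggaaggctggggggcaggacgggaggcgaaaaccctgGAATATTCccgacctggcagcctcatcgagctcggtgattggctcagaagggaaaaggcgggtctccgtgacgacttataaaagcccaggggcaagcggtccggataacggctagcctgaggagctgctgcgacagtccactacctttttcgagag
DNAJB4: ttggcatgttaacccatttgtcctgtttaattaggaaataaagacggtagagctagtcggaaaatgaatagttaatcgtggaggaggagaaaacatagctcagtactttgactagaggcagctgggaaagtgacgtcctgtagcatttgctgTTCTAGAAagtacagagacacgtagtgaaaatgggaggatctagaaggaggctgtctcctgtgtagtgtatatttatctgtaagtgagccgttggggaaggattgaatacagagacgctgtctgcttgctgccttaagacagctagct
HSPA8 held 3-unit matches that begin at positions -230 and -55, as GAAAGTTCCAGAA and TTCTGGAAGGTTC. HSP90AB1, which has other annotated starts, held them at this start at -165 and -112, and none at the others, as TTCTGGAAGATTC and TTCTGGAAGCTTC. HSPA1A held a single 2-unit match, GAATATTC, at -106, and DNAJB4 a single TTCTAGAA at -98 before this start and none at its other annotated start. A match is a description of the letters and not a binding site. Only exact letters were searched, so heat shock elements with units that deviate from them are not marked. The 3-unit motif was in 7 of the 84 promoters of 64 members with one in the table, 8.33%, against 0.490% of all 35116 promoters. It belonged to DNAJA1, DNAJB6, HSP90AB1, HSPA8, HSP90AA1, HSPA6 and HSPD1. Of these 7 members, 4 were lower in Liq by the test described next and 0 were higher. The 4 were DNAJA1, DNAJB6, HSP90AB1 and HSPA8, and the calls of DNAJA1 and HSP90AB1 were lost with offsets along the expression level (below). All 4 lay above 100 CPM on average, where most tested genes had a log2 fold change below 0. Among all 50 tested genes with the motif, members included, 9 were higher and 9 lower, while 12.6% were higher and 12.2% lower of the 9268 tested genes with a promoter in the table. The 2-unit motifs were more common, in 21.4% (GAANNTTC) and 15.5% (TTCNNGAA) of the members' promoters and in 6.77% and 7.74% of all promoters.

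Of the 77 members, 58 passed the filter on low counts and were tested with all 13546 genes that passed it, by edgeR's quasi-likelihood test with Benjamini-Hochberg adjustment over all of them. A gene was called at an adjusted p under 0.05. In Liq, 9 members rose and 8 fell, so that 29.3% of the tested members were called, against 24.0% of all tested genes. The background was 12.6% for a rise and 11.3% for a fall, and 15.5% and 13.8% of the members were called in these directions, so that the shares lay near the background. The genes that rose were DNAJB4, HSPA1L, HSPA12A, DNAJB5, HSPA1B, HSPA1A, DNAJB11, DNAJC16 and DNAJC4, and those that fell were DNAJC17, HSPA8, HSPA14, DNAJB6, DNAJA3, HSP90AB1, DNAJA1 and HSPA9. A change of at least 1.5-fold, the size used by the study, was reached by DNAJB4 alone among the members, 1 of 58, while 6.45% of all tested genes were called at that size, 4.29% as higher and 2.16% as lower. Among the 50 members at 10 CPM or more on average, 7 rose and 7 fell, 28.0% in all, against 24.6% of the 9545 tested genes at such a level, 10.9% higher and 13.6% lower. The median log2 fold change was -0.01 over the members and 0.01 over all tested genes. Both Liq samples lay above both vehicle samples for 16 of the 58 tested members, 27.6%, and below them for 22, 37.9%, against 31.5% and 30.2% of all tested genes.

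These counts depended on single samples and on the fit, and so did the calls over all tested genes. Leaving out either vehicle sample or Liq 2 changed both, and leaving out Liq 1 changed the members' counts little. With the replicate number of the labels as a block, 12 members were higher and 18 lower. Over all tested genes the block called 2321 higher and 2474 lower, against 1712 and 1533 without it. With offsets fitted along the expression level, 9 members were higher and 5 lower, and over all tested genes 1468 and 1339.

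**Figure D1:**
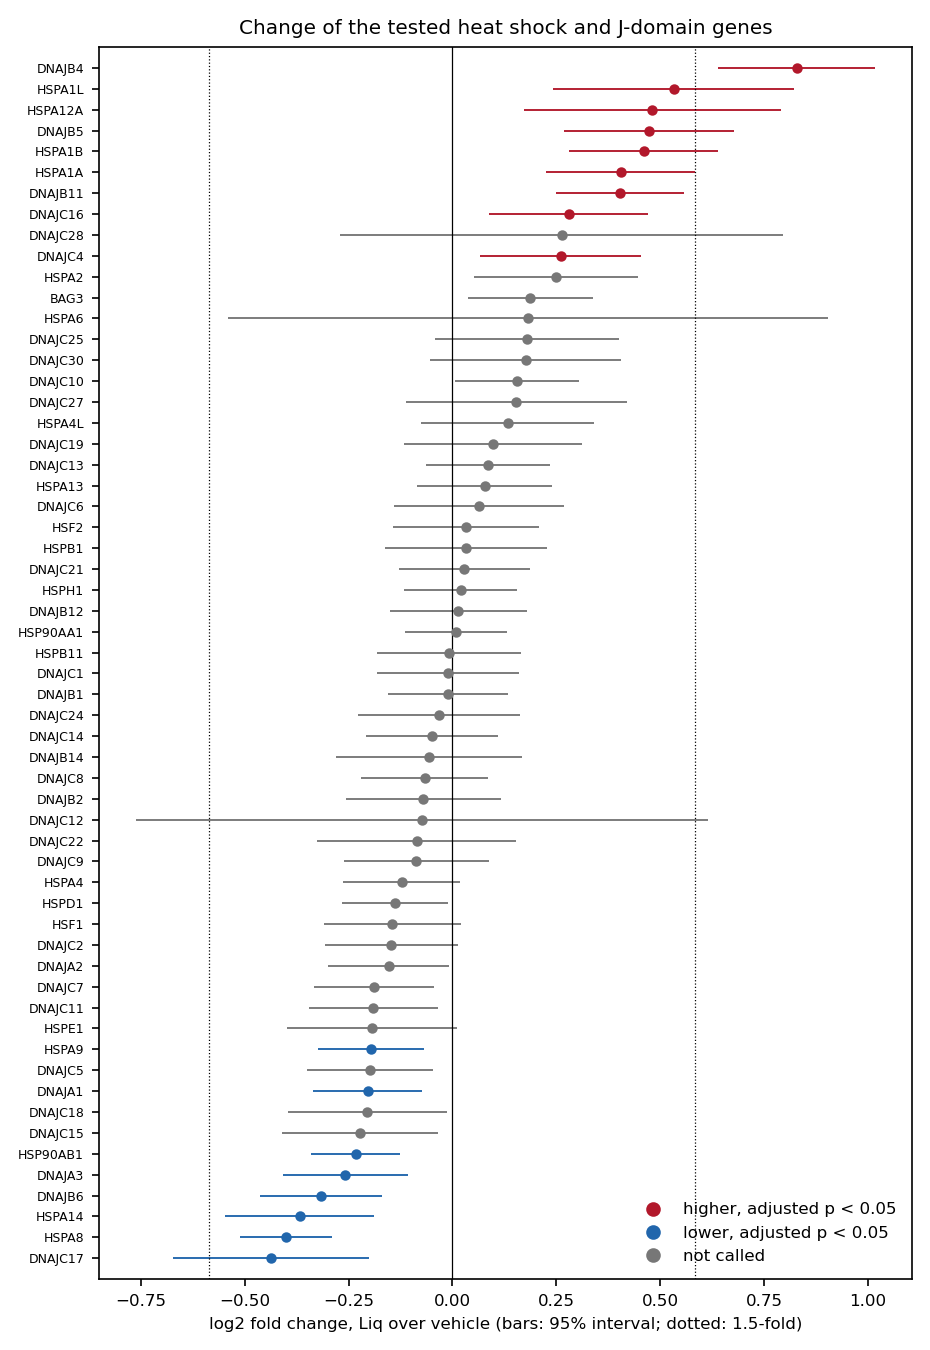
The log2 fold change (Liq over vehicle, horizontal axis) of the 58 tested members, with bars for the 95% interval from edgeR and dotted lines at 1.5-fold. DNAJB4 stands apart at 0.83 on the right, and the other called genes lie between -0.44 and 0.53.

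**Figure D2:**
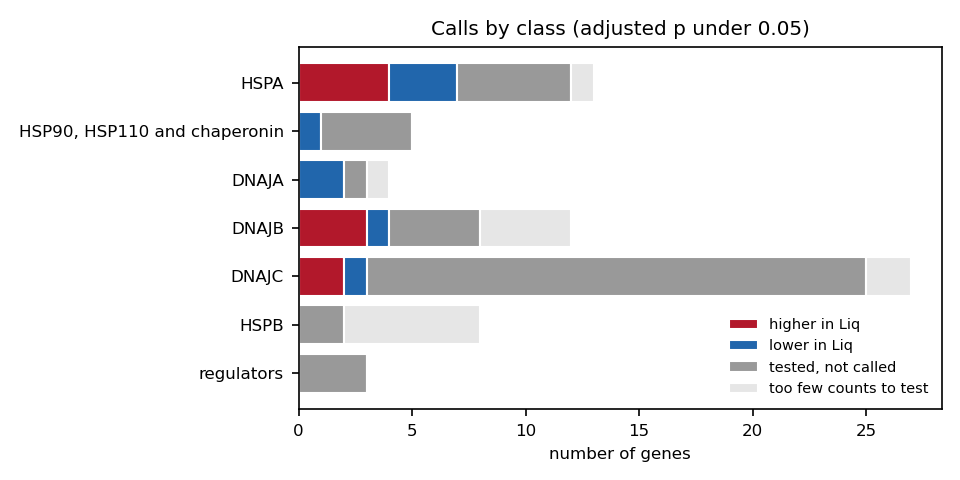
The number of genes per class that were higher in Liq, lower in Liq, tested without a call, or too low to test. The HSPA class holds 4 higher and 3 lower genes, and 22 of the 25 tested DNAJC genes were not called. The shares called were 58.3% for HSPA and 12.0% for DNAJC, beside 24.0% of all tested genes.

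The HSP70 genes moved in both directions, and 7 of the 12 tested were called, 4 higher and 3 lower. This was 58.3%, beside 24.0% of all tested genes. HSPA8, the constitutive cytosolic HSP70 (chromosome 11 from 122928197 to 122933938, GRCh37, GENCODE annotation), was read at 3071 and 3060 CPM in the vehicle samples and at 2366 and 2277 CPM in the Liq samples. Both Liq samples were low and the groups did not overlap. The change on the log2 scale was -0.40 with an SE of 0.05 (adjusted p = 3.51e-06, edgeR, n = 2 per group), or a level 1.32 times as high in vehicle as in Liq. In bulk RNA, fewer cells with the transcript and less of it per cell cannot be told apart, here and for all other genes. The stress-inducible pair went the other way. HSPA1A (chromosome 6 from 31783320 to 31785723) had 33.5 and 32.7 CPM in vehicle and 41.9 and 45.7 CPM in Liq. HSPA1B (chromosome 6 from 31795515 to 31798031) had 32.4 and 30.6 CPM in vehicle and 42.4 and 44.3 CPM in Liq. For both genes each Liq sample was above each vehicle sample, with log2 fold changes of 0.41 (SE 0.09, adjusted p = 0.00124, edgeR) and 0.46 (SE 0.09, adjusted p = 3.25e-04, edgeR). These genes are near-identical copies: of the stretches of 100 bases, the read length, in the HSPA1A transcript, 72.4% occur unchanged in that of HSPA1B. Reads that align to more than 1 place were not counted, so both levels are too low and come from the part in which the copies differ. HSPA8 has 17 annotated pseudogenes and may be undercounted as well.

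HSPA1L, their neighbour, which is best known from testis (chromosome 6 from 31777396 to 31783060), was low, at 3.92 and 4.75 CPM in vehicle and 6.35 and 6.18 CPM in Liq. Its log2 fold change, with an SE of 0.14, was 0.53 (adjusted p = 0.00701, edgeR). Its transcript shares no stretch of 100 bases with HSPA1A or HSPA1B. HSPA12A, a distant relative of HSP70, rose from 3.26 and 3.50 CPM to 4.58 and 4.82 CPM (log2 fold change 0.48, SE 0.15, adjusted p = 0.0210, edgeR). HSPA6, the strictly inducible HSP70 that is almost silent without stress, had 25 and 16 counts in vehicle and 17 and 34 in Liq. These values overlapped, and the 95% interval of its log2 fold change ran from -0.54 to 0.90, so that a change of the size seen for HSPA1A was not detectable at this depth. HSPA14, which works on the ribosome with the J-domain protein DNAJC2, fell from 45.2 and 45.9 CPM to 33.1 and 37.4 CPM (log2 fold change -0.37, SE 0.09, adjusted p = 0.00307, edgeR). Its partner DNAJC2 was at 79.4 and 86.0 CPM in vehicle and 73.0 and 76.3 CPM in Liq and was not called (adjusted p = 0.177, edgeR). HSPA9, the HSP70 of mitochondria, fell from 650 and 657 CPM to 555 and 586 CPM (log2 fold change -0.20, SE 0.06, adjusted p = 0.0221, edgeR). The other tested HSPA genes, HSPA2, HSPA4, HSPA4L and HSPA13, had log2 fold changes of 0.25, -0.12, 0.13 and 0.08 and were not called.

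Per kilobase of transcript, HSPA8 and HSP90AB1 were the most abundant members. HSPA8 was above HSP90AB1 in both vehicle samples, with ratios of 1.09 in each, and just below it in both Liq samples, with ratios of 0.993 and 0.945. Which of the 2 is higher depends on the transcript length used and on reads lost to copies. HSPA8 has 17 annotated pseudogenes and HSP90AB1 has 6, so the crossing of 1 is not read as a result. HSPA1A and HSPA1B together made up 1.94% and 1.87% of the summed level per kilobase of HSPA1A, HSPA1B and HSPA8 in vehicle, and 3.18% and 3.52% in Liq. This share was higher in both Liq samples, but its size is set by the reads lost to the copies. With 2 samples per group no exact permutation test of such a ratio can go below p = 0.3333, so none was made.

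**Figure D3:**
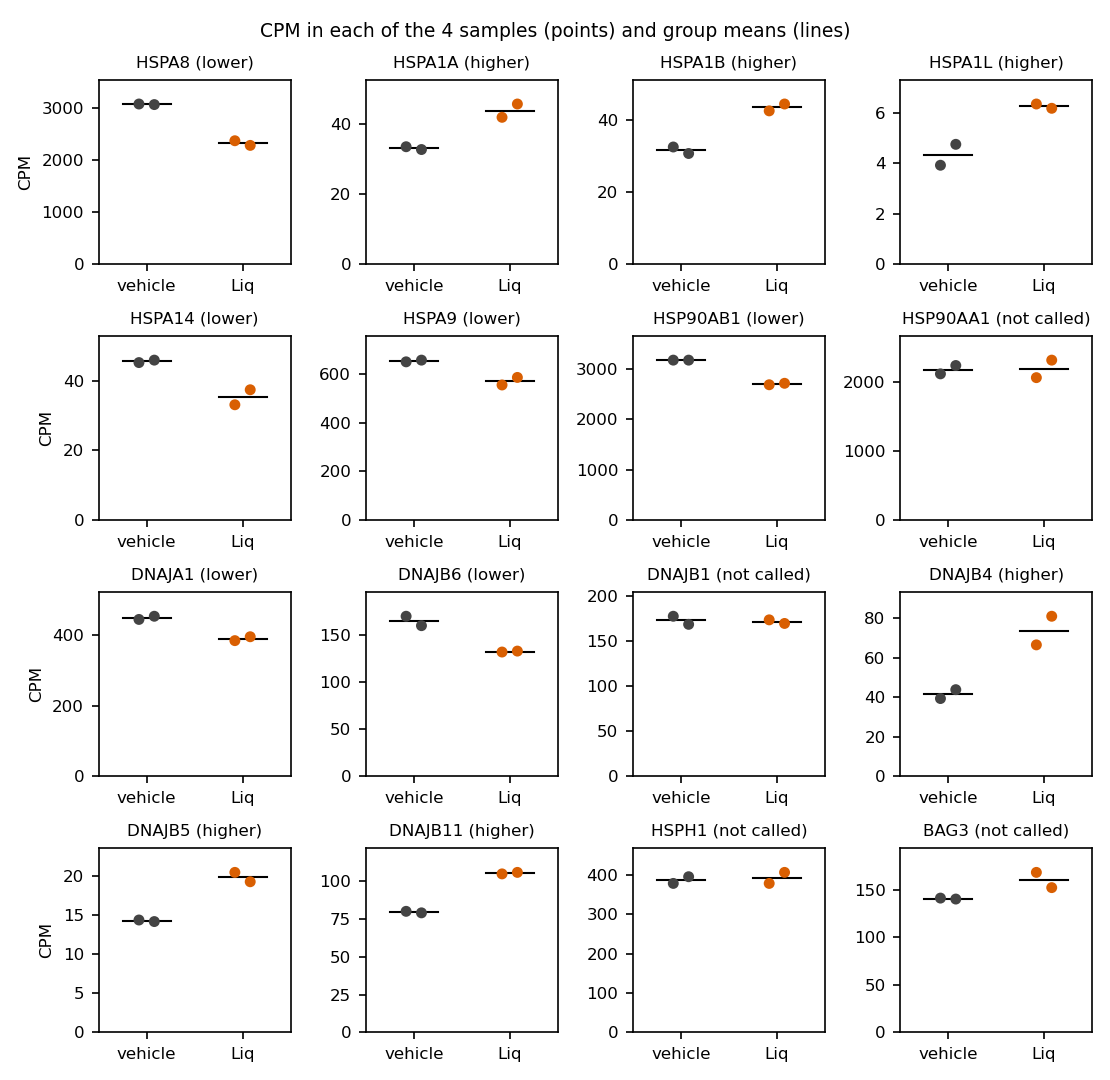
CPM (vertical axes, from 0) of 16 members in the 2 vehicle and 2 Liq samples, with a line at each group mean and the result of edgeR's test in the title. HSPA8, HSPA14, HSPA9, HSP90AB1, DNAJA1 and DNAJB6 are lower in both Liq samples, HSPA1A, HSPA1B, HSPA1L, DNAJB4, DNAJB5 and DNAJB11 are higher in both, BAG3 is higher in both without a call, and the points of HSP90AA1, DNAJB1 and HSPH1 overlap.

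Of the 2 cytosolic HSP90 genes, the constitutive HSP90AB1 fell and the inducible HSP90AA1 was not called. HSP90AB1 (chromosome 6 from 44213903 to 44221625) had 3178 CPM in each vehicle sample and 2689 and 2718 CPM in the Liq samples, which were both lower. The log2 fold change was -0.23 (SE 0.05, adjusted p = 0.00186, edgeR), and with offsets along the expression level it was -0.09 and no longer called (adjusted p = 0.207, edgeR). HSP90AA1 (chromosome 14 from 102547079 to 102606036) had 2122 and 2243 CPM in vehicle and 2067 and 2321 CPM in Liq. Its groups overlapped, and the 95% interval of the log2 fold change was -0.12 to 0.13. The ratio of HSP90AB1 to HSP90AA1 per kilobase was 1.89 and 1.79 in vehicle and 1.64 and 1.48 in Liq. HSPH1, the HSP110 exchange factor, had 378, 395, 378 and 406 CPM in vehicle 1, vehicle 2, Liq 1 and Liq 2, with an interval of -0.12 to 0.16 for its log2 fold change. The mitochondrial chaperonin genes HSPD1 and HSPE1, which share a divergent promoter, were both lower in Liq on average and neither was called. HSPD1 had 861 and 901 CPM in vehicle and 765 and 835 CPM in Liq (log2 fold change -0.14, adjusted p = 0.109, edgeR). HSPE1 had 28.6 and 24.0 CPM in vehicle and 22.1 and 23.9 CPM in Liq (log2 fold change -0.19, adjusted p = 0.164, edgeR). HSPE1 has 26 annotated pseudogenes and HSPD1 has 18, and the table also lists a read-through row over HSPE1, HSPE1-PHOCN, with 0 counts in every sample. HSPE1 also lies, with all its 3310 bases, within the annotated span of HSPD1 on the other strand, and whether the counting used strand is not given in the sources used here. Reads over more than 1 gene were left out of the counts. Whether the exons of the 2 genes overlap was not examined, so how many reads HSPE1 lost in this way is not known. The level of HSPE1 is therefore not set beside that of HSPD1.

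The J-domain genes gave the widest range. Of 36 tested, 5 rose, 4 fell and 27 were not called, so that 13.9% rose and 11.1% fell, near the 12.6% and 11.3% of all tested genes. Their median log2 fold change was -0.04. DNAJB4, a cytosolic J-domain protein closely related to DNAJB1 (chromosome 1 from 78444859 to 78483648), had 39.4 and 43.9 CPM in vehicle and 66.6 and 81.1 CPM in Liq. Both Liq samples were well above both vehicle samples, and Liq 2 was above Liq 1. The log2 fold change was 0.83 (SE 0.09, adjusted p = 1.74e-07, edgeR), a level 1.78 times that of vehicle. It ranged from 0.68 to 0.96 over the 11 other fits and was called in each. The gene GIPC2 overlaps DNAJB4 on the same strand but had 3, 1, 4 and 5 counts. DNAJB1, the best known partner of HSPA8 and itself a target of HSF1, was at 178, 169, 174 and 170 CPM in the 4 samples. The interval of its log2 fold change was -0.16 to 0.13. The ratio of DNAJB4 to DNAJB1 per kilobase was 0.171 and 0.201 in vehicle and 0.296 and 0.367 in Liq.

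DNAJB5, of the same subfamily, rose from 14.4 and 14.2 CPM to 20.5 and 19.3 CPM (log2 fold change 0.47, SE 0.10, adjusted p = 9.99e-04, edgeR). DNAJB11, an ER protein that serves the ER HSP70, rose from 80.2 and 79.2 CPM to 105 and 106 CPM (log2 fold change 0.40, SE 0.07, adjusted p = 2.61e-04, edgeR). The antisense gene TBCCD1 overlaps it by 3141 bases, and the strand setting of the counting is not given in the sources used here. TBCCD1 had 513, 520, 597 and 816 counts and was itself called higher (log2 fold change 0.33, adjusted p = 0.0227, edgeR). DNAJB6, known for holding back the aggregation of polyglutamine proteins, fell from 170 and 160 CPM to 132 and 133 CPM (log2 fold change -0.32, SE 0.07, adjusted p = 0.00201, edgeR). DNAJB2, DNAJB12 and DNAJB14 were not called, with log2 fold changes from -0.07 to 0.01.

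All 3 tested DNAJA genes, the class closest to the bacterial DnaJ, had both Liq samples below both vehicle samples, and 2 passed the test. Over all tested genes, 30.2% had both Liq samples below both vehicle samples, and 11.3% were called lower. All 3 lay at 100 to 1000 CPM, where 1654 of 2417 tested genes had a log2 fold change below 0. DNAJA1 had 444 and 453 CPM in vehicle and 384 and 395 CPM in Liq (log2 fold change -0.20, SE 0.06, adjusted p = 0.0203, edgeR). The mitochondrial DNAJA3 had 124 and 125 CPM in vehicle and 105 and 103 CPM in Liq (log2 fold change -0.26, SE 0.07, adjusted p = 0.0112, edgeR). DNAJA2 had 178 and 184 CPM in vehicle and 158 and 168 CPM in Liq and was not called (adjusted p = 0.117, edgeR). The call of DNAJA1 was lost with offsets along the expression level and without any 1 of vehicle 1, vehicle 2 and Liq 1, and that of DNAJA3 without either vehicle sample.

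The DNAJC genes are joined only by the J domain and serve many tasks, and 22 of the 25 tested were not called. The share called was 12.0%, beside 24.0% of all tested genes. DNAJC17, a nuclear protein linked to splicing, fell from 11.7 and 11.2 CPM to 9.05 and 7.97 CPM (log2 fold change -0.44, SE 0.11, adjusted p = 0.00646, edgeR). DNAJC16, of the ER, rose from 25.6 and 27.2 CPM to 30.3 and 33.8 CPM (log2 fold change 0.28, SE 0.09, adjusted p = 0.0291, edgeR). The span of DNAJC17 overlaps GCHFR on the other strand by 2548 bases, and that of DNAJC16 overlaps AGMAT by 13353. Other members have such overlaps too, among them DNAJB1 (TECR, 43307 bases) and DNAJC7 (NKIRAS2, 9995 bases). The limit given for DNAJB11, an unknown strand setting, therefore holds for these genes as well. DNAJC4 had 39.3 and 34.7 CPM in vehicle and 48.3 and 40.7 CPM in Liq, and its rise passed the test narrowly (log2 fold change 0.26, SE 0.09, adjusted p = 0.0448, edgeR). DNAJC4 was called in 6 and DNAJC16 in 7 of the 11 other fits. DNAJC7, which links HSP70 to HSP90, and DNAJC5, the cysteine-string protein of secretory vesicles, lay just outside the threshold. DNAJC7 had 167, 170, 150 and 145 CPM in vehicle 1, vehicle 2, Liq 1 and Liq 2 (adjusted p = 0.0515, edgeR), and DNAJC5 had 141, 131, 120 and 117 CPM (adjusted p = 0.0509, edgeR). Both were lower in both Liq samples. Among the rest were DNAJC6 (auxilin, clathrin uncoating), DNAJC9 (a histone chaperone), DNAJC13 (endosomes) and DNAJC21 (ribosome assembly), whose log2 fold changes lay between -0.09 and 0.09.

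Neither small heat shock protein gene that could be tested was called. HSPB1 (HSP27; chromosome 7 from 75931990 to 75933612) had 85.5 and 69.4 CPM in vehicle and 87.0 and 71.7 CPM in Liq. The samples of a group differed far more than the group means did, and the interval of the log2 fold change was -0.16 to 0.23. HSPB11, which carries the family's name but works in intraflagellar transport, had 43.0, 42.4, 41.3 and 43.6 CPM.

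The regulators were not called either. HSF1 had 143 and 126 CPM in vehicle and 129 and 114 CPM in Liq, and HSF2 had 40.8, 39.6, 39.5 and 42.6 CPM. The groups overlapped for both, with log2 fold changes of -0.14 (adjusted p = 0.198, edgeR) and 0.03 (adjusted p = 0.825, edgeR). HSF1 was called lower in 2 of the 11 other fits, with the replicate block (adjusted p = 0.0250, edgeR) and without Liq 1 (log2 fold change -0.24, adjusted p = 0.0169, edgeR). It was at -0.05 without vehicle 1, -0.23 without vehicle 2 and -0.06 without Liq 2. HSF2 was called in 0 of them. BAG3, the exchange factor that hands clients to autophagy, had 141 and 140 CPM in vehicle and 168 and 152 CPM in Liq. Both Liq samples were higher, but the difference missed the threshold, at 0.19 on the log2 scale (SE 0.07, adjusted p = 0.0643, edgeR). It was called in 4 of the 11 other fits. These are RNA levels, and the activity of HSF1, which is set largely on the protein, was not measured here.

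The other 19 members were too low to test. Of these, 8 had 0 counts in every sample: DNAJA4, DNAJB3, DNAJB8, DNAJB8-AS1, DNAJC5G, DNAJC25-GNG10, HSPB2-C11orf52 and HSPB3. A count of 0 allows up to 3 counts, which were 0.0613 to 0.0868 CPM in these libraries, for counting error only. Another 10 had fewer than 10 counts in every sample, among them HSPB6 with 4, 3, 9 and 5 counts, DNAJB13 with 2, 3, 5 and 3 counts and the pseudogene HSPA7 with 3, 5, 4 and 6 counts. DNAJC5B had 2 and 3 counts in vehicle and 7 and 13 in Liq. The small heat shock protein genes HSPB2, HSPB7 and HSPB8 had at most 2 counts in any sample.

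Together the members took 1.37% and 1.40% of all gene reads in vehicle and 1.29% and 1.34% in Liq. HSPA8, HSP90AA1 and HSP90AB1 alone held 59.1% of the members' CPM in each vehicle sample and 56.6% and 56.2% in the Liq samples. The called members differed in level by direction. All 9 members that rose had less than 100 CPM on average, and 6 of the 8 that fell had more. A trend of this kind ran through all tested genes, whose median log2 fold change was 0.17 under 10 CPM, -0.08 from 100 to 1000 CPM and -0.09 at 1000 CPM or more. Of the 74 tested genes at 1000 CPM or more, 53 were lower in Liq, 6 had a lower log2 fold change than HSPA8 and 12 a lower one than HSP90AB1. Offsets fitted along the expression level, which are meant to remove this trend, left HSPA8 called at -0.26 (adjusted p = 7.05e-04, edgeR) and ended 5 calls. Of these, HSP90AB1 moved from -0.23 to -0.09, HSPA9 from -0.20 to -0.10, DNAJA1 from -0.20 to -0.12 and HSPA12A from 0.48 to 0.34. DNAJC4 was at 0.26 and then 0.27, and its adjusted p went from 0.0448 to 0.0501 (edgeR). HSP90AA1, not called in either fit, moved from 0.01 to 0.14. The shifts of HSPA8, HSP90AB1 and HSP90AA1 were larger in size than the median of -0.09 at 1000 CPM or more.

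**Figure D4:**
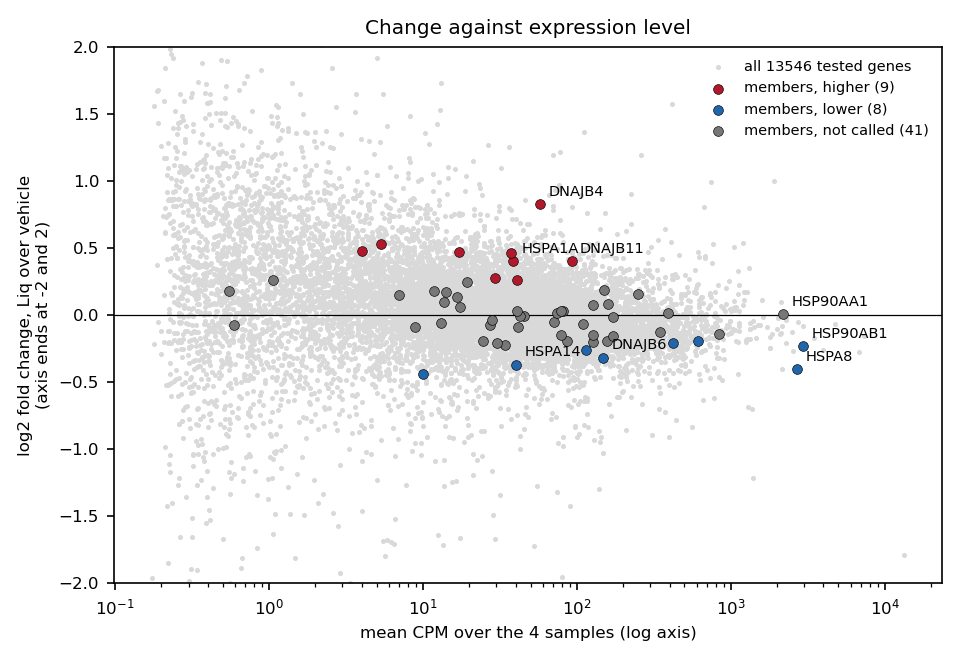
The log2 fold change (Liq over vehicle) of each tested gene against its mean CPM on a log axis, with all 13546 tested genes in grey and the 58 members in colour by call. Members that rose sit below 100 CPM, and HSPA8 and HSP90AB1 sit at the high end below 0.

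By compartment the counts were small, and the shares called, 2 of 10 ER and 3 of 10 mitochondrial members, lay near the 24.0% of all tested genes. Of the 10 ER members tested, 2 rose (DNAJB11 and DNAJC16) and 0 fell, at a median log2 fold change of 0.05. Of the 10 mitochondrial members tested, 1 rose (DNAJC4) and 2 fell (HSPA9 and DNAJA3), at a median of -0.16. The remaining 38, cytosolic, nuclear and others, had 6 in each direction at a median of -0.01. The ER HSP70 gene HSPA5, which DNAJB11 serves and which is not counted among the members, had 639 and 618 CPM in vehicle and 896 and 924 CPM in Liq (log2 fold change 0.53, adjusted p = 2.57e-07, edgeR). Of the other ER stress genes left out of the members, DNAJC3 rose (0.42, adjusted p = 9.99e-04, edgeR) and DNAJB9 was not called (0.23, adjusted p = 0.104, edgeR).

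The other genes of the folding pathway were taken from lists written by hand. Of 60 tested, 4 rose and 14 fell, 30.0% called against 24.0% of all tested genes, with a median log2 fold change of -0.12 against 0.01 over all tested genes. The chaperonin TRiC, which folds actin and tubulin in the cytosol, and its partner prefoldin accounted for 9 of the 14 falls, among 14 tested genes. This was 64.3% of the 14, beside 11.3% of all tested genes called lower. Most of the 14 lay at 100 to 1000 CPM, where 540 of 2417 tested genes were called lower. CCT2 had 468 and 478 CPM in vehicle and 371 and 401 CPM in Liq (log2 fold change -0.29, adjusted p = 0.00173, edgeR), and CCT4 had 638 and 646 CPM in vehicle and 512 and 552 CPM in Liq (log2 fold change -0.27, adjusted p = 0.00258, edgeR). None of the 14 rose, and their median log2 fold change was -0.21. Of 15 HSP90 cochaperones 2 fell, TOMM34 (log2 fold change -0.47, adjusted p = 5.98e-06, edgeR) and NUDC (-0.27, adjusted p = 0.00527, edgeR), and 0 rose. The share that fell, 13.3%, was near the 11.3% of all tested genes. Of 14 HSP70 cochaperones outside the J-domain family, HYOU1 and SIL1 rose and BAG6 and GRPEL1 fell, 28.6% called beside 24.0% of all tested genes. HYOU1 and SIL1 are exchange factors of the ER, and HYOU1 was the only gene of these lists to reach 1.5-fold, from 149 and 141 CPM to 229 and 213 CPM (log2 fold change 0.61, adjusted p = 5.04e-07, edgeR). HSP90B1, the HSP90 of the ER, also rose (log2 fold change 0.35, adjusted p = 6.55e-05, edgeR), while its mitochondrial relative TRAP1 was not called (-0.12, adjusted p = 0.250, edgeR). Of 11 tested HSF partners and further heat-inducible genes, HSF4 rose (0.40, adjusted p = 0.0304, edgeR), from 9.97 and 9.88 CPM to 15.6 and 10.7 CPM, and SERPINH1, a collagen chaperone, fell (-0.26, adjusted p = 0.00757, edgeR). Here 18.2% were called, below the 24.0% of all tested genes. The disaggregase and protease genes CLPB, CLPP, CLPX and LONP1 were not called. The count of 14 lower genes was 7 with offsets along the expression level, 5 without vehicle 1 and 7 without vehicle 2.

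Across all 11 other fits, 6 of the 17 called members were called in each: DNAJB4, DNAJB5, DNAJB11, HSPA1A and HSPA1B as higher, and HSPA8 as lower. All 17 kept their direction in each of these fits. Leaving out vehicle 1 lost the calls of 9 members and leaving out vehicle 2 those of 7, and DNAJA1, DNAJA3, DNAJC4, DNAJC16, HSPA9 and HSPA12A were lost in both.

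**Figure D5:**
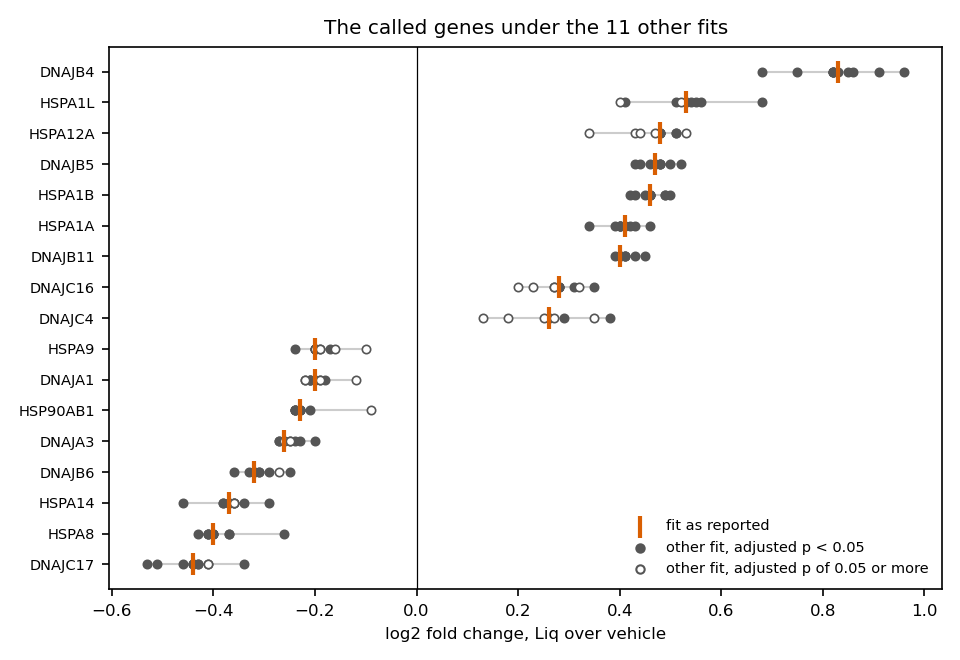
The log2 fold change (Liq over vehicle) of the 17 called members in the fit as reported (orange marks) and in the 11 other fits (circles, filled where the adjusted p was under 0.05). Every point of the 9 higher genes lies right of 0 and every point of the 8 lower genes left of it, and DNAJB4 spans 0.68 to 0.96. All fits reuse the same 4 samples.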

How the data were processed

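RNA-seq libraries (TruSeq, single-end reads of 100 bases) of ES2 cells given vehicle or Liq were analysed, with 2 samples per group and groups taken from the sample titles. The dose is taken from the study's methods. Per the labels, the authors aligned the reads to hg19 with TopHat2 2.0.8b and counted reads per gene with HTSeq, and the deposited values are unnormalized counts, 1 table per sample. The gene rows of a sample summed to between 34573053 and 48933893 reads. The HTSeq tally lines were kept out of library sizes and tests, and 35.6% to 36.2% of all tallied reads had aligned to more than 1 place.

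Counts were tested in R 4.3.3 with edgeR 4.0.16 (filterByExpr at its minimum count, 10, and minimum total, 15, TMM, glmQLFit and glmQLFTest, no block). The SE is the size of the log2 fold change divided by the square root of F, and the 95% interval uses the t distribution of that test. A level per kilobase is CPM over the exonic length of the GENCODE canonical transcript (GRCh37). Promoter sequences are from a RefSeq table in which 13 members were not matched. The fits were tested on simulated counts. Named genes were 15 classical members, those past 1.5-fold, the 4 with the smallest p and the most abundant per class, and, in each list of other chaperone genes, the 2 with the smallest p and any past 1.5-fold. Other members were also named, after their values had been seen, where a group had to be accounted for. The members, classes and lists were chosen with earlier results of these data known. Alternatives were DESeq2's size factors and its Wald test (DESeq2 1.42.0), upper-quartile factors, loess offsets that follow expression level (span 0.3), no filter, at least 10 counts in every sample, a replicate block, unadjusted p-values, and each sample left out in turn.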

Additional observations from a re-analysis of the deposited data

How the results depend on the processing

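Of the 28 members named by the rule above, called or not, 22 to 28 kept their call or lack of one under each alternative that kept all samples. HSPA1L, HSPA9 and HSPA12A are not among the 28. The calls of HSPA1L and HSPA12A were lost with the DESeq2 Wald test, and those of HSPA9 and HSPA12A with loess offsets. The 9 higher and 8 lower members became 5 higher with the DESeq2 Wald test, 5 lower with loess offsets along the expression level, and 15 lower at an unadjusted p under 0.05. Leaving out each sample in turn gave 5 to 9 higher and 3 to 14 lower members, 1 to 2 higher members at 1.5-fold, and 8 to 16 called among the named members against 14 with all samples. A lone sample is then assumed to vary like those of the other group. The 14 lower genes among the other chaperone lists were 7 with loess offsets and 5 to 15 without single samples. With the replicate number as a block there were 18 lower members and 26 lower genes of the other lists. The numbers are those of the sample titles, and with 2 pairs they cannot be shown to pair the samples, since no more than a correlation of 0.129 was seen between the deviations of same-numbered samples, across genes. All 17 called members remained called under the block, which called 4795 of all genes against 3245 without it. Without vehicle 1 the total was 1413 and without vehicle 2 it was 1542. The cause of these shifts was not tested. The depth limits HSPA6, DNAJC12 and DNAJC28, which had 16 to 54 counts, and the 19 untested members.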
